A study of Mus musculus with 30 samples.

Results

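Oncofetal genes are active in the fetal liver, are silenced around birth and can return in regeneration and in liver tumours. Here they are 6 genes, chosen by name: Afp, Igf2, Gpc3, Cd24a, Dlk1 and H19. A gene was represented by the probe set that is annotated to it alone and has the highest mean over all arrays. Of the 6 listed genes, 5 had such a probe set, among 18193 genes in the whole table. H19 had none: its only probe set is annotated to H19 and the microRNA gene Mir675 together, and its values are given apart. A gene was tested when its signal exceeded the median of the array on at least 3 arrays. By that filter 4 of the 5 (Afp, Igf2, Gpc3 and Cd24a) were tested, among 12795 genes. Dlk1 exceeded the median on 1 array and was fitted only in a model with no filter. Gpc3 passed narrowly, with 3 arrays above the median.

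Liver RNA of adult male mice on a C57BL/6J background was measured on 30 Affymetrix arrays, 3 in each of 10 groups. CPA (cyproterone acetate, a steroid drug that blocks the androgen receptor; 160 mg/kg) was given daily by mouth to hCAR/hPXR, CARko/PXRko and wild type (WT) mice. DCB (1,4-dichlorobenzene, a moth repellent; 600 mg/kg) was given in the same way to the same 3 genotypes. Corn oil alone, at 0 mg/kg of either agent, was given to hCAR/hPXR, CARko/PXRko, PXRko and WT mice. CAR and PXR are receptors in hepatocytes that sense foreign chemicals and induce the enzymes that clear them: hCAR/hPXR mice carry the human receptors in place of the mouse ones, CARko/PXRko mice lack both, and PXRko mice lack PXR. DCB and corn oil are labelled 3 days in every genotype. CPA is labelled 6 days in hCAR/hPXR and WT mice and 3 days in CARko/PXRko mice, whereas the protocol speaks of 3 days throughout, so a CPA effect carries labelled duration with it in hCAR/hPXR and WT mice. Groups of 5 mice are stated in the design, but nothing ties each array to its own mouse, so the p-values reflect the spread among these arrays, which may be partly technical.

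Values are log2 signals. Changes are differences between group means on the log2 scale ± SE with 3 arrays a group, and p-values are from limma, adjusted over the 12795 genes. Calls were made at adjusted p-values under 0.05. Array medians lay between 5.36 and 5.44. The 8 hepatocyte markers measured all exceeded the median on every array. By a cut at 1.5 above WT corn oil in the median of 17 muscle markers, 3 of the 30 arrays carried skeletal muscle transcripts. Corn oil PXRko replicate 3, at 1.42, fell just under the cut and is counted below among the arrays without muscle transcripts. The 3 above the cut were all from CARko/PXRko mice. Their medians stood 5.97 above WT corn oil in DCB replicate 3, 2.13 in DCB replicate 2 and 6.27 in corn oil replicate 2. DCB replicate 3 also carried adrenal cortex transcripts, with a median of 6 markers 6.05 above WT corn oil, and brown fat transcripts, with a median of 4 markers 4.28 above it. Squamous epithelium markers stood 3.17 above WT corn oil in DCB replicate 2. Leaving out these 3 arrays leaves 1 DCB array and 2 corn oil arrays of CARko/PXRko mice, and the model then takes the lone DCB array to vary like the other groups. Values without the 3 arrays are given beside the CARko/PXRko results below, and those that involve DCB rest on that 1 array, so a lost call there comes with the loss of arrays.

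Afp encodes alpha-fetoprotein, the main plasma protein of the fetus and the close relative of albumin. Its gene lies beside the albumin gene, and its transcription in hepatocytes depends on the factor HNF1 near the start site and on distant enhancers. In adult mouse liver it is held down by the repressors Zhx2 and Zbtb20, and Zhx2 is also known to repress H19 and Gpc3 there. Igf2 is a fetal growth factor, imprinted together with H19, a noncoding RNA. Gpc3 is a heparan sulfate proteoglycan of the cell surface, Cd24a a small sialylated surface protein of progenitor, biliary and blood cells, and Dlk1 a Notch-related transmembrane protein that marks hepatoblasts. In bulk liver, fewer cells that express a gene and less RNA per cell cannot be told apart, and the same holds for more cells and more RNA.

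The promoter of Afp is shown because Afp alone among the 6 genes was called in any comparison. It is the RefSeq sequence on the + strand of GRCm38.p6, chr5:90490464-90490763, which takes in 250 bases before the start of the gene and 50 after it. Capitals mark the core letters of the HNF1 site searched for, GTTAAT.
Afp: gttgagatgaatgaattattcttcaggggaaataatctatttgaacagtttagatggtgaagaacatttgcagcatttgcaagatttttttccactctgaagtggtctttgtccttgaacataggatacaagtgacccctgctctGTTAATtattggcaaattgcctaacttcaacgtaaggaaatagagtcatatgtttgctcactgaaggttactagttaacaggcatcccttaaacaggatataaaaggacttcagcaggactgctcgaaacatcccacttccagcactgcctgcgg
The match begins at position -105 relative to the start of the gene and was the only one to these exact letters. HNF1 sites that depart from these letters were not searched for, so the number of HNF1 sites is not given. On either strand GTTAAT is held by 7.099% of 32851 promoters of 300 bases. The glucocorticoid receptor core TGTTCT was found once, on the opposite strand at position -190 (18.97% of promoters hold it). The antioxidant response element TGACNNNGC (12.39%) and the AP-1 motif TGANTCA (7.808%) were not found in these letters. A match is a description of the sequence and says nothing of binding.

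Afp was high on the arrays of DCB-treated livers in all 3 genotypes and near its corn oil level on the arrays of CPA-treated livers. The 9 DCB arrays lay between 8.16 and 10.80, with a median of 8.80. The 21 other arrays lay between 5.25 and 7.17, with a median of 5.90. The ranges did not overlap. Across the 10 groups, Afp differed by the limma F test (adjusted p = 2.40e-05), as did 15.6% of the genes tested. The other members tested did not pass it, with adjusted p = 0.220 for Cd24a, 0.326 for Gpc3 and 0.655 for Igf2.

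**Figure D1:**
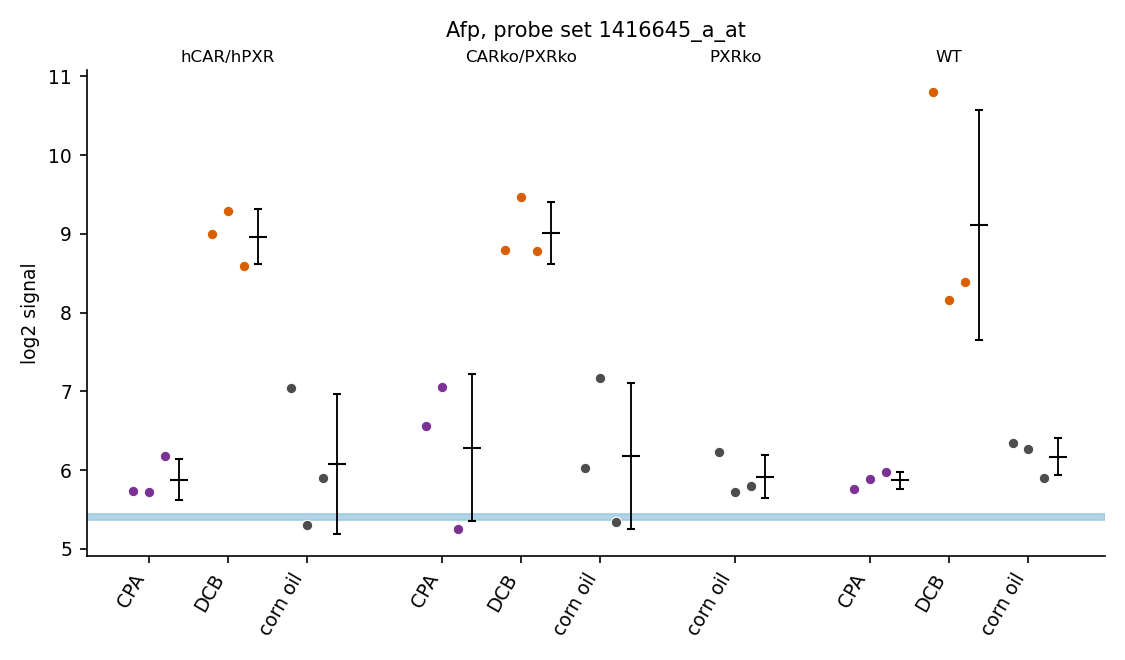
Afp log2 signal (vertical axis) on each of 30 arrays, by genotype and treatment, with the mean and SD of each group of 3 as a cross and bars and the range of the array medians as a blue band. The 9 DCB arrays lie at 8.16 or above, and the other 21 at 7.17 or below.

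In hCAR/hPXR mice, Afp stood at 9.01, 9.30 and 8.60 on the DCB arrays, against 7.04, 5.30 and 5.90 on the corn oil arrays. Every DCB array lay above every corn oil array. Afp rose by 2.89 ± 0.54, a fold of 7.39 (95% interval 3.40 to 16.1, adjusted p = 0.00226). Afp was the 1 of 4 tested members called, where 7.64% of all genes were called and 3.29% rose. Its rise ranked 11 among the differences of the 12795 genes. The call was kept whichever array was left out, with differences between 2.50 and 3.37.

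In CARko/PXRko mice, which lack both receptors, Afp stood at 8.80, 9.47 and 8.78 on the DCB arrays, against 6.02, 7.17 and 5.34 on the corn oil arrays. These groups did not overlap either. Afp rose by 2.84 ± 0.54, a fold of 7.16 (3.29 to 15.6, adjusted p = 0.0237), and was the 1 of 4 members called, where 0.117% of genes were called, all of them higher. The difference ranked 5 among the 12795 genes. The call depended on single arrays. It was lost without DCB replicate 2 (2.61, adjusted p = 0.163), without corn oil replicate 1 (2.76, adjusted p = 0.167) and without corn oil replicate 3 (2.42, adjusted p = 0.292). Without the 3 arrays with skeletal muscle transcripts the difference was 3.12 ± 0.78 (adjusted p = 0.235), with 1 DCB array set against 2 corn oil arrays, which cannot show whether the call rests on those tissues. With only the 2 groups compared in the fit, the adjusted p was 0.542 and 0 genes in all were called.

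In WT mice, Afp stood at 10.80, 8.16 and 8.40 on the DCB arrays, against 6.34, 6.26 and 5.90 on the corn oil arrays. DCB replicate 1 was the highest of all 30 arrays, and the groups did not overlap. Afp rose by 2.95 ± 0.54, a fold of 7.72 (3.55 to 16.8, adjusted p = 0.00519). It was again the 1 of 4 members called, where 0.735% of genes were called and 0.61% rose, and its rise ranked 7 among the 12795 genes. Without DCB replicate 1 the difference was 2.11 ± 0.48 and missed the threshold (adjusted p = 0.0635), and with only the 2 groups compared it was 2.95 with an adjusted p of 0.0576.

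The size of the DCB effect on Afp was compared between genotypes, which asks whether the human receptors, or the loss of both, changed it. In hCAR/hPXR mice the effect differed from that in WT mice by -0.06 ± 0.77 (95% interval -1.65 to 1.52), and in CARko/PXRko mice by -0.11 ± 0.77 (-1.69 to 1.48). Neither difference passed the test (adjusted p = 1.00 in both), and the intervals are too wide to show that the effects were alike. Without the 3 muscle arrays the second difference was 0.17 ± 0.94 (adjusted p = 1.00). No member passed in either of these comparisons, nor did any gene in the table: 0% of genes were called, with 398 and 324 genes at an unadjusted p under 0.05 in hCAR/hPXR and CARko/PXRko mice.

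Under CPA, Afp was near its corn oil level. In hCAR/hPXR mice it stood at 5.74, 5.72 and 6.18 on the CPA arrays, a difference from corn oil of -0.20 ± 0.54 (95% interval -1.32 to 0.92, adjusted p = 0.926). In CARko/PXRko mice it stood at 6.56, 7.05 and 5.25, a difference of 0.11 ± 0.54 (-1.01 to 1.23, adjusted p = 0.926), and of 0.61 ± 0.58 without the 3 muscle arrays (adjusted p = 0.607). In WT mice it stood at 5.76, 5.88 and 5.97, a difference of -0.30 ± 0.54 (-1.42 to 0.83, adjusted p = 0.954). The CPA arrays overlapped the corn oil arrays in each genotype. No member was called for CPA, where 4.42% of genes were called in hCAR/hPXR, 5.49% in CARko/PXRko and 1.12% in WT mice.

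Set directly against each other within a genotype, the CPA arrays were below the DCB arrays for Afp in all 3 genotypes, with no overlap. The doses differ between the agents, and the labelled days differ in hCAR/hPXR and WT mice. Afp was lower under CPA by a log2 difference of -3.09 ± 0.54 in hCAR/hPXR mice (adjusted p = 0.000884), -2.73 ± 0.54 in CARko/PXRko mice (adjusted p = 0.00435) and -3.25 ± 0.54 in WT mice (adjusted p = 0.00182). It was the 1 of 4 members called in each, where 9.31%, 7.6% and 2.01% of genes were called in hCAR/hPXR, CARko/PXRko and WT mice. In CARko/PXRko mice the difference was -2.51 ± 0.74 (adjusted p = 0.1004) without the 3 muscle arrays, with 1 DCB array left, and the call was lost with only the groups compared (adjusted p = 0.131). These comparisons use the same DCB arrays as the DCB effects and are no separate evidence of the DCB effect.

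**Figure D2:**
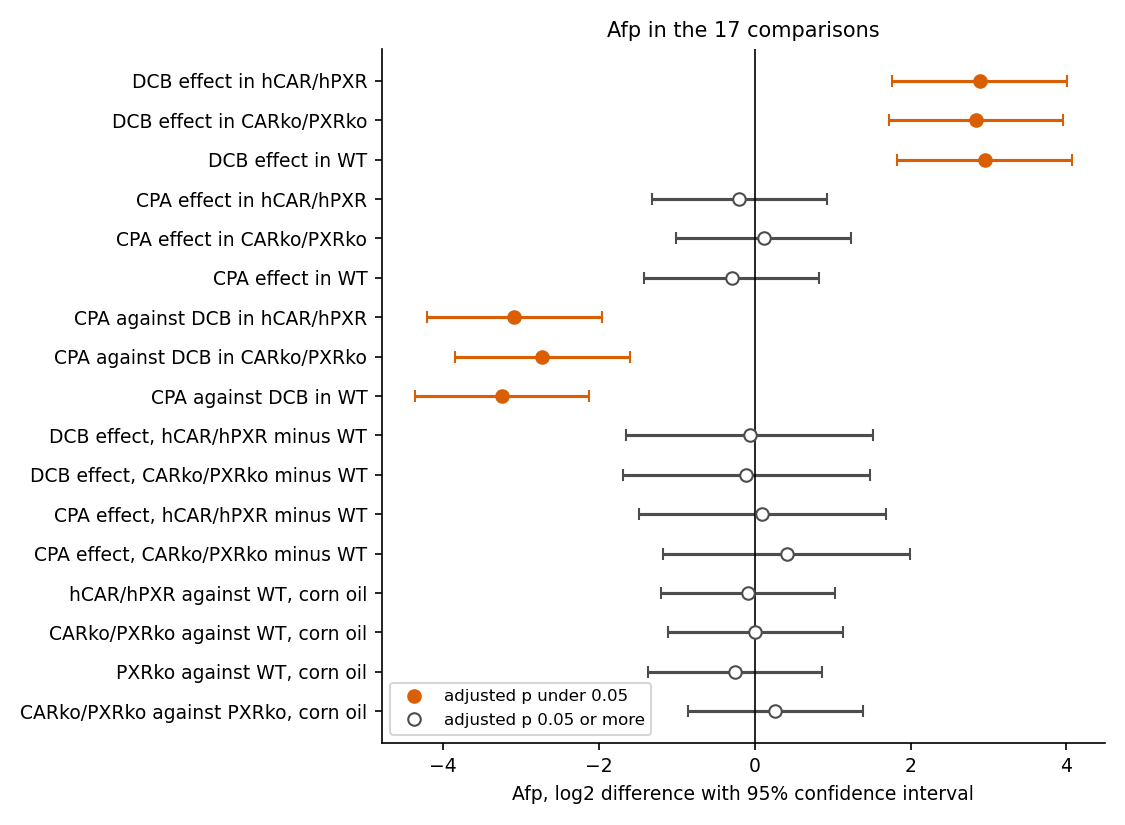
Afp log2 difference (horizontal axis) in each of 17 comparisons, with its 95% confidence interval; filled orange points have an adjusted p under 0.05. The 3 DCB effects lie between 2.84 and 2.95, the 3 CPA effects between -0.30 and 0.11.

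With corn oil alone, none of the 4 genotype differences in Afp passed the test (adjusted p = 1.00 in each). Means were 6.08 ± 0.89 in hCAR/hPXR, 6.18 ± 0.93 in CARko/PXRko, 5.91 ± 0.27 in PXRko and 6.17 ± 0.24 in WT mice (SD, n = 3 each). The arrays of CARko/PXRko mice (5.34 to 7.17) and of hCAR/hPXR mice (5.30 to 7.04) were spread more widely than those of WT mice (5.90 to 6.34). Without the 3 muscle arrays, CARko/PXRko mice differed from WT mice by -0.49 ± 0.58 and from PXRko mice by -0.23 ± 0.58. No member was called in any corn oil comparison: against WT, 0.0234% of genes were called in hCAR/hPXR, 0.0391% in CARko/PXRko and 0.0234% in PXRko mice. Between the knockouts, CARko/PXRko and PXRko, the share was 0.0156%. Ordered by mean, the 3 DCB groups came first and overlapped one another, a gap of 2.68 followed, and the 7 groups below it also overlapped their neighbours.

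Afp has 5 probe sets of its own, and they did not give the same size of change. The one used above, 1416645_a_at, had the highest mean. In 1416646_at the 9 DCB arrays (7.12 to 9.68) lay above the other 21 (5.41 to 6.62), and in 1436879_x_at they did so too (5.01 to 7.60, against 3.19 to 4.44). The remaining dim probe sets never exceeded the array median: 1436881_x_at (4.32 to 5.18 on DCB arrays, against 3.66 to 4.48) and 1436880_at (3.81 to 4.17, against 3.58 to 4.21), and both overlapped.

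In a model fitted to all probe sets, the DCB effect in 1416646_at was 1.87 in hCAR/hPXR (adjusted p = 0.0187), 2.01 in CARko/PXRko (adjusted p = 0.110) and 2.48 in WT mice (adjusted p = 0.00528). In 1436879_x_at it was 2.02 (adjusted p = 0.0109), 1.86 (adjusted p = 0.155) and 1.98 (adjusted p = 0.0343) in the same genotypes. The smaller model differences of 1436881_x_at were 0.83 (adjusted p = 0.0221), 0.44 (adjusted p = 0.761) and 0.54 (adjusted p = 0.422). In CARko/PXRko mice just 1 of the 5 probe sets was therefore called in that model, 1416645_a_at (2.84, adjusted p = 0.0462). When the 5 probe sets were averaged, the DCB effect on Afp became 1.55 ± 0.28 in hCAR/hPXR, 1.43 ± 0.28 in CARko/PXRko and 1.61 ± 0.28 in WT mice, smaller and still called in each.

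**Figure D3:**
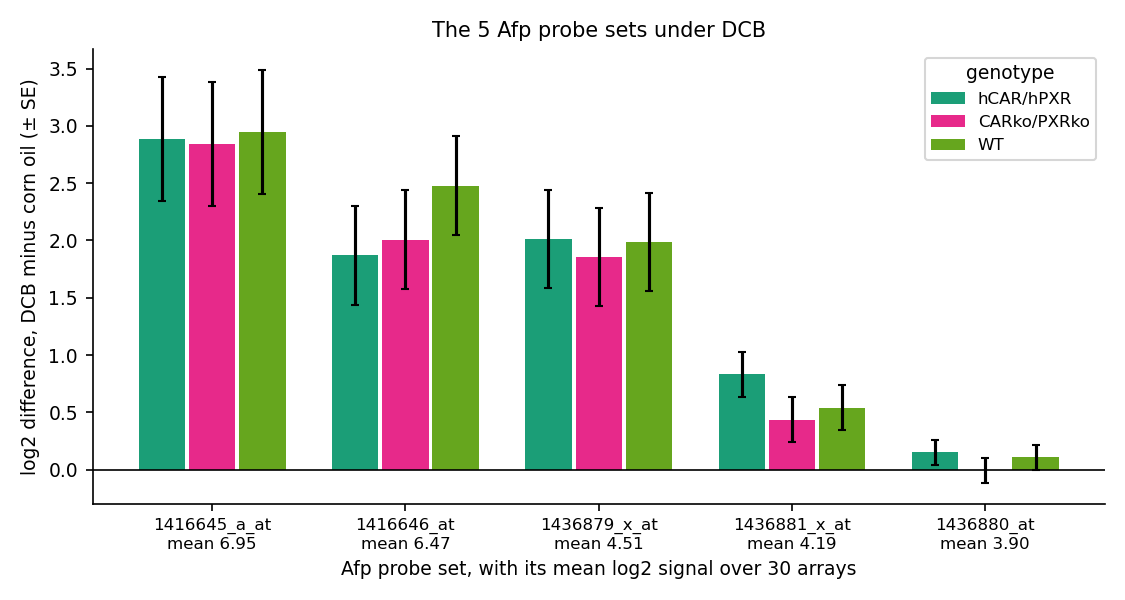
DCB minus corn oil for the 5 Afp probe sets (horizontal axis, with the mean log2 signal of each over 30 arrays), as log2 differences (vertical axis) with bars for ± SE, in hCAR/hPXR, CARko/PXRko and WT mice. The 3 brighter or middle probe sets differ by 1.86 to 2.95, and the dimmest, 1436880_at, by 0.15 or less.

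Marker genes of other cell types were set beside these values. The hepatocyte median stayed within -0.12 and 0.07 of WT corn oil on every array, but several of these markers lie near the top of the array scale, where a change shows little. Apob, a less bright one, stood at 11.52 on DCB CARko/PXRko replicate 3 and 12.64 on DCB CARko/PXRko replicate 2. It stood at 12.33 on corn oil CARko/PXRko replicate 2, against 12.54 on WT corn oil replicate 1. That is the only WT array given for Apob, and the other hepatocyte markers are not given by array. Kupffer cell and macrophage markers (8 measured) had medians of -1.01 to -0.48 on DCB hCAR/hPXR arrays, -0.83 to -0.62 on DCB CARko/PXRko arrays and -0.58 to -0.13 on DCB WT arrays, against -0.11 to 0.08 on WT corn oil arrays. With corn oil their medians were 0.16 to 0.37 in hCAR/hPXR and -0.39 to -0.07 in CARko/PXRko mice. On the CPA arrays they had medians of -1.25 to -0.48 in hCAR/hPXR, -1.18 to -0.42 in CARko/PXRko and -0.92 to -0.74 in WT mice. Cholangiocyte and progenitor markers (6 measured) had medians between -0.40 and 0.07 on the DCB arrays and between -0.40 and 0.21 on the corn oil arrays. Erythroid markers (3 measured) had medians of -0.95 to -0.55 on DCB hCAR/hPXR arrays, -0.81 to -0.35 on DCB CARko/PXRko arrays and -0.79 to -0.26 on DCB WT arrays, against -0.20 to 0.24 on WT corn oil arrays. On the CPA arrays of hCAR/hPXR mice they had medians of -0.48 to -0.40, on those of CARko/PXRko mice -1.02 to -0.04, and on those of WT mice -0.56 to -0.41. With corn oil the erythroid medians were -0.33 to -0.24 in hCAR/hPXR and -0.53 to -0.06 in CARko/PXRko mice. At most 2 of the 3 erythroid markers exceeded the array median on any array, so these medians are largely of dim probe sets. Stellate cell markers (9 measured) had medians of -1.20 to -0.46 on DCB hCAR/hPXR arrays, -0.48 to 1.20 on DCB CARko/PXRko arrays and -0.38 to 0.18 on DCB WT arrays, against -0.26 to 0.25 on WT corn oil arrays. The part of these cell types in the Afp values was not tested.

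The pattern of Afp over the 30 arrays was most like that of Gla (Pearson r = 0.92, Spearman rho = 0.82), Cstb (0.91, 0.85), Cct7 (0.91, 0.78), Sptlc2 (0.91, 0.79) and Fbxo2 (0.90, 0.56). Gla encodes the lysosomal enzyme alpha-galactosidase A, Cstb the protease inhibitor cystatin B, Cct7 a subunit of a cytosolic chaperonin, and Sptlc2 a subunit of the first enzyme of sphingolipid synthesis. These coefficients are over arrays that fall into 2 clusters, DCB and the rest, so they describe a shared step between those clusters, and no p is given. Without the muscle arrays they were 0.90 to 0.92 over 27 arrays, and without the 2 arrays farthest from the median of Afp they were 0.87 to 0.90.

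The other members were called in none of the comparisons. Over the 30 arrays, which all members share, the correlation with Afp was 0.01 for Igf2, 0.47 for Gpc3, 0.15 for Cd24a and 0.10 for Dlk1, and over the 27 arrays without muscle transcripts it was -0.17, 0.54, -0.01 and -0.20. Their values by array follow.

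**Figure D4:**
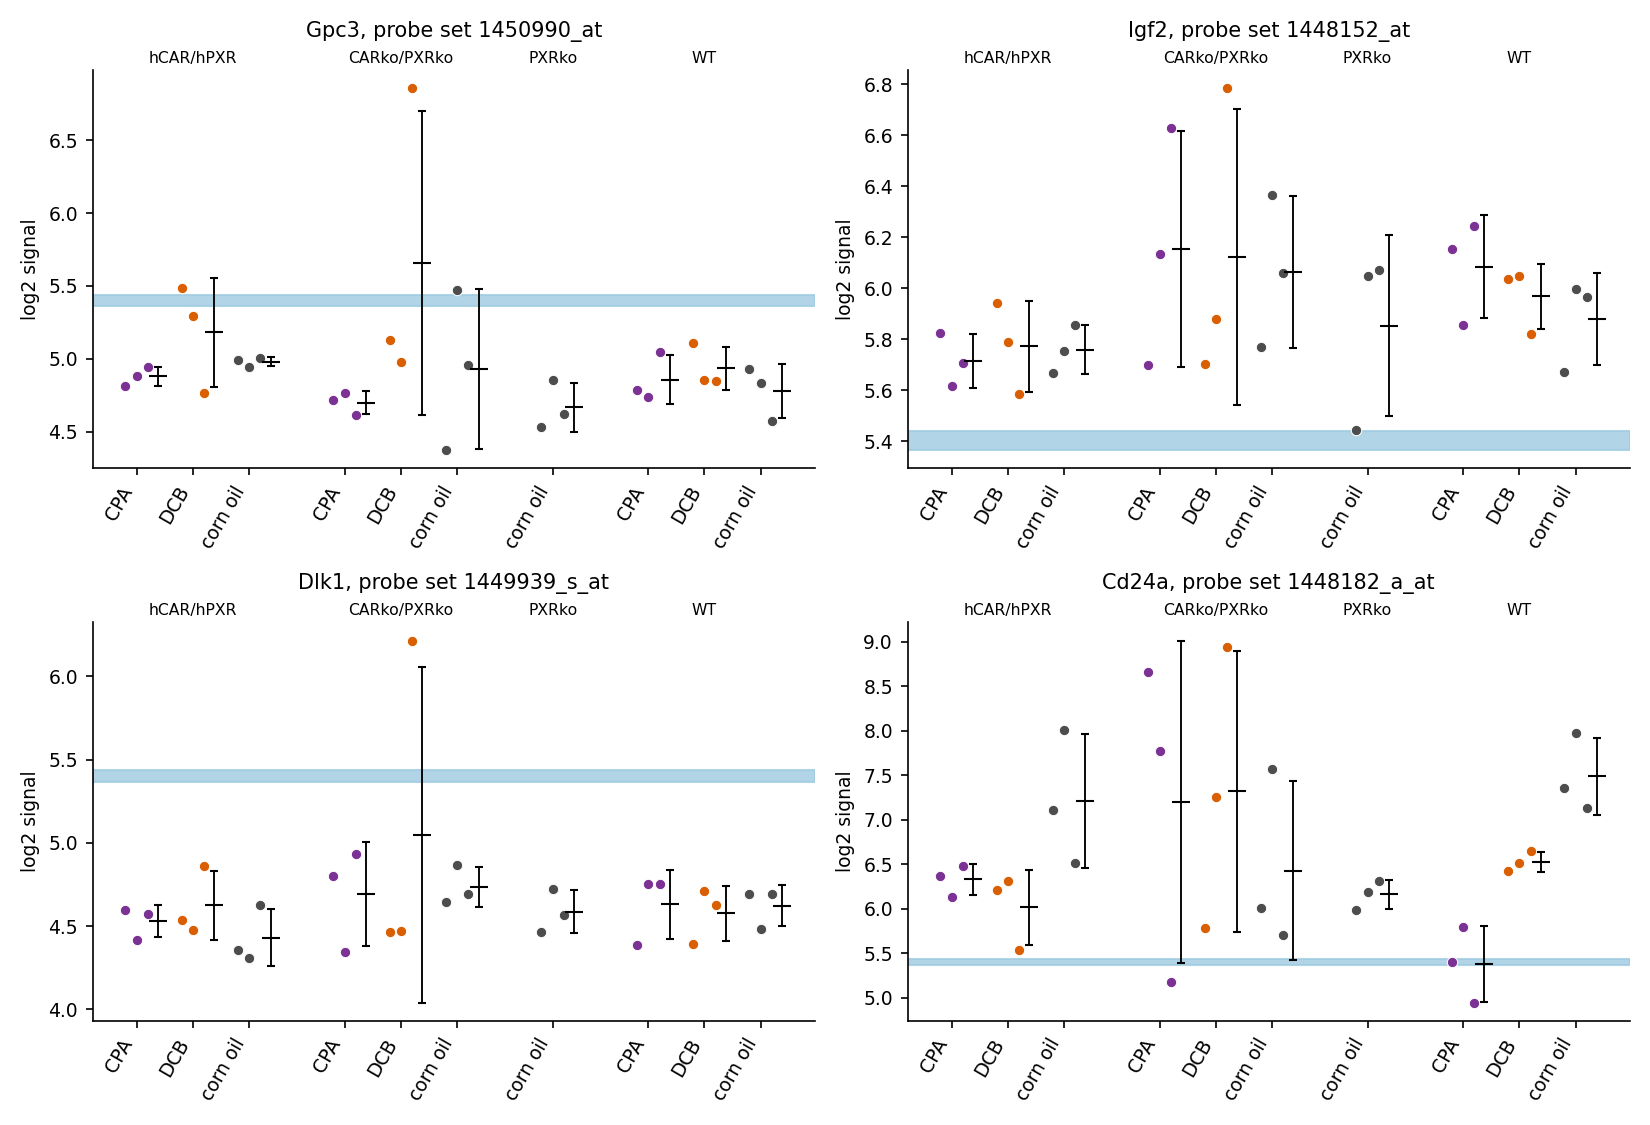
Log2 signal (vertical axes, each with its own range) of Gpc3, Igf2, Dlk1 and Cd24a on each of 30 arrays, by genotype and treatment, with the mean and SD of each group of 3 and the range of array medians as a blue band. Gpc3, Igf2, Dlk1 and Cd24a are all highest on the same array, DCB CARko/PXRko replicate 3.

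Igf2 varied little. Its probe set exceeded the median on all 30 arrays, and the group means lay between 5.72 in CPA hCAR/hPXR and 6.15 in CPA CARko/PXRko mice. Every group overlapped its neighbour in that order. On the CARko/PXRko arrays Igf2 stood at 5.70, 6.13 and 6.63 under CPA, 5.70, 5.88 and 6.78 under DCB, and 5.77, 6.37 and 6.06 under corn oil. The highest value, 6.78, was on the DCB array with muscle, adrenal and brown fat transcripts. The differences for DCB were 0.01 ± 0.24 in hCAR/hPXR, 0.06 ± 0.24 in CARko/PXRko and 0.09 ± 0.24 in WT mice (adjusted p = 0.983, 0.986 and 0.970). Without the 3 muscle arrays the DCB difference in CARko/PXRko mice was -0.21 ± 0.29, with 1 DCB array left. For CPA the differences were -0.04, 0.09 and 0.21 in the same genotypes (adjusted p = 0.971, 0.857 and 0.901). The 95% interval in WT mice reached from -0.40 to 0.58 for DCB and from -0.28 to 0.70 for CPA. A second probe set, 1415931_at, exceeded the median on 0 arrays.

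Gpc3 lay near or below the array median. On the DCB arrays it stood at 5.49, 5.29 and 4.76 in hCAR/hPXR, 5.13, 4.98 and 6.86 in CARko/PXRko and 5.11, 4.85 and 4.85 in WT mice. On the CPA arrays the values were between 4.61 and 5.05, and on the corn oil arrays between 4.37 and 5.47. The highest value, 6.86, was again on DCB CARko/PXRko replicate 3. The DCB differences were 0.20 ± 0.31 in hCAR/hPXR, 0.72 ± 0.31 in CARko/PXRko and 0.16 ± 0.31 in WT mice (adjusted p = 0.761, 0.554 and 0.948), and none was called. CPA arrays lay below DCB arrays in CARko/PXRko mice without overlap, at -0.96 ± 0.31, which missed the threshold (adjusted p = 0.0613). That difference was called after a further quantile normalization (-0.98, adjusted p = 0.0474) and without DCB replicate 1 (-1.22, adjusted p = 0.0277) or DCB replicate 2 (-1.29, adjusted p = 0.0182), settings that keep the array with adrenal and muscle transcripts. Without the 3 muscle arrays Gpc3 exceeded the median on too few arrays to be tested.

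Dlk1 stood between 4.31 and 4.93 on 29 of the arrays and at 6.21 on DCB CARko/PXRko replicate 3, the only array on which it exceeded the median. Its group means lay between 4.43 and 5.05. In the model with no filter on dim genes, none of its differences passed, the lowest adjusted p being 0.440 for CPA against DCB in CARko/PXRko mice. With its signal under the median on nearly every array, a change in Dlk1 may be understated.

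Of the members with their own probe set, Cd24a had the widest spread within groups (pooled SD 0.89). In WT mice it stood at 5.40, 5.79 and 4.94 on the CPA arrays, 6.42, 6.51 and 6.64 on the DCB arrays, and 7.35, 7.97 and 7.13 on the corn oil arrays. Corn oil was highest, and the 3 groups did not overlap. The CPA difference was -2.11 ± 0.67, a fold of 0.232 (95% interval 0.0884 to 0.610), and did not pass (unadjusted p = 0.00468, adjusted p = 0.154). The DCB difference was -0.96 ± 0.67 (adjusted p = 0.713).

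In hCAR/hPXR mice Cd24a stood at 6.37, 6.14 and 6.48 on the CPA arrays, 6.21, 6.31 and 5.53 on the DCB arrays, and 7.11, 8.01 and 6.52 on the corn oil arrays. The corn oil arrays were again highest without overlap. The differences were -0.89 ± 0.67 for CPA (adjusted p = 0.593) and -1.20 ± 0.67 for DCB (adjusted p = 0.297).

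In CARko/PXRko mice Cd24a stood at 8.66, 7.77 and 5.17 on the CPA arrays, 5.78, 7.25 and 8.94 on the DCB arrays, and 6.01, 7.57 and 5.70 on the corn oil arrays. Arrays of a group lay far apart, and all groups overlapped. Neither CPA (0.77 ± 0.67, adjusted p = 0.527) nor DCB (0.90 ± 0.67, adjusted p = 0.799) passed. The CPA effect in CARko/PXRko mice exceeded that in WT mice by 2.88 ± 0.95 (95% interval 0.91 to 4.85), which did not pass after adjustment (unadjusted p = 0.00599, adjusted p = 0.464) and carries labelled duration with genotype. Without the 3 muscle arrays the differences in CARko/PXRko mice were 1.35 ± 0.60 for CPA (adjusted p = 0.218) and -0.08 ± 0.81 for DCB, with 1 DCB array left, and the excess of the CPA effect over that in WT mice was 3.45 ± 0.81 (adjusted p = 0.1004). In that comparison no member was called, against 0.0703% of genes, and in hCAR/hPXR against WT mice none was called, against 0.0625%. With corn oil alone Cd24a stood at 5.99, 6.18 and 6.31 in PXRko mice, below the WT arrays without overlap (-1.33 ± 0.67, adjusted p = 1.00).

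The calls for Cd24a were sensitive to the model. The CPA difference in WT mice became called without the 3 muscle arrays (-2.11, adjusted p = 0.0455), none of which is in the comparison, and with only the WT groups in the fit (-2.11, adjusted p = 0.00183). Its other probe sets, 1416034_at and 1437502_x_at, differed under CPA in WT mice by -1.63 (adjusted p = 0.358) and -1.72 (adjusted p = 0.282). Markers of several other cell types were lower on the same arrays, and those of neutrophils were not. On CPA WT arrays the medians were -0.56 to -0.41 for erythroid markers (3 measured), -0.37 to -0.09 for B and T cell markers (7 measured), -0.35 to -0.20 for cholangiocyte and progenitor markers (6 measured) and -0.92 to -0.74 for Kupffer cell and macrophage markers. On WT corn oil arrays they were -0.20 to 0.24, -0.08 to 0.07, -0.16 to 0.21 and -0.11 to 0.08. Neutrophil markers (6 measured) had medians of -0.05 to 0.06 on CPA WT arrays, against -0.12 to 0.16 on WT corn oil arrays, and stellate cell markers of -0.47 to -0.17, against -0.26 to 0.25. On the CPA WT arrays 1 erythroid, 2 B and T cell and 1 to 3 neutrophil markers exceeded the array median. Those medians are therefore mostly of dim probe sets, where a change may be understated. The part of these cell types in the Cd24a values was not tested. Over the 27 arrays without muscle transcripts the gene most like Cd24a was Slc4a1, the anion exchanger of red cells (r = 0.71, and 0.60 over all 30). Over all 30 it was Anxa1 (r = 0.71, and 0.59 over the 27), which encodes annexin A1. Without the 2 arrays farthest from the median of Cd24a, the coefficients were 0.51 for Slc4a1 and 0.67 for Anxa1. Over all 30, Cd24a correlated with the erythroid median at 0.34 and with the stellate cell median at 0.54, the highest of the marker lists. Its correlations with the skeletal muscle and adrenal cortex medians came next, at 0.46 and 0.43. All of these include the 3 muscle arrays.

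H19 could be read only through 1448194_a_at, the probe set of H19 and Mir675 together. It stood at 9.98 on DCB CARko/PXRko replicate 3, 6.09 on DCB CARko/PXRko replicate 2 and 10.52 on corn oil CARko/PXRko replicate 2. On the other 27 arrays it lay between 3.95 and 5.02. The 3 high arrays are the 3 above the muscle cut. The next highest, 5.02, was corn oil PXRko replicate 3, where the muscle median, 1.42 above WT corn oil, fell just under it. Over 30 arrays the correlation with the muscle median was 0.99, and it rests on these few arrays. H19 RNA is known to persist in adult mouse skeletal muscle. The part of muscle tissue in these values was not tested. The 9 CPA arrays, none of them with muscle transcripts, lay between 4.08 and 4.48.

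**Figure D5:**
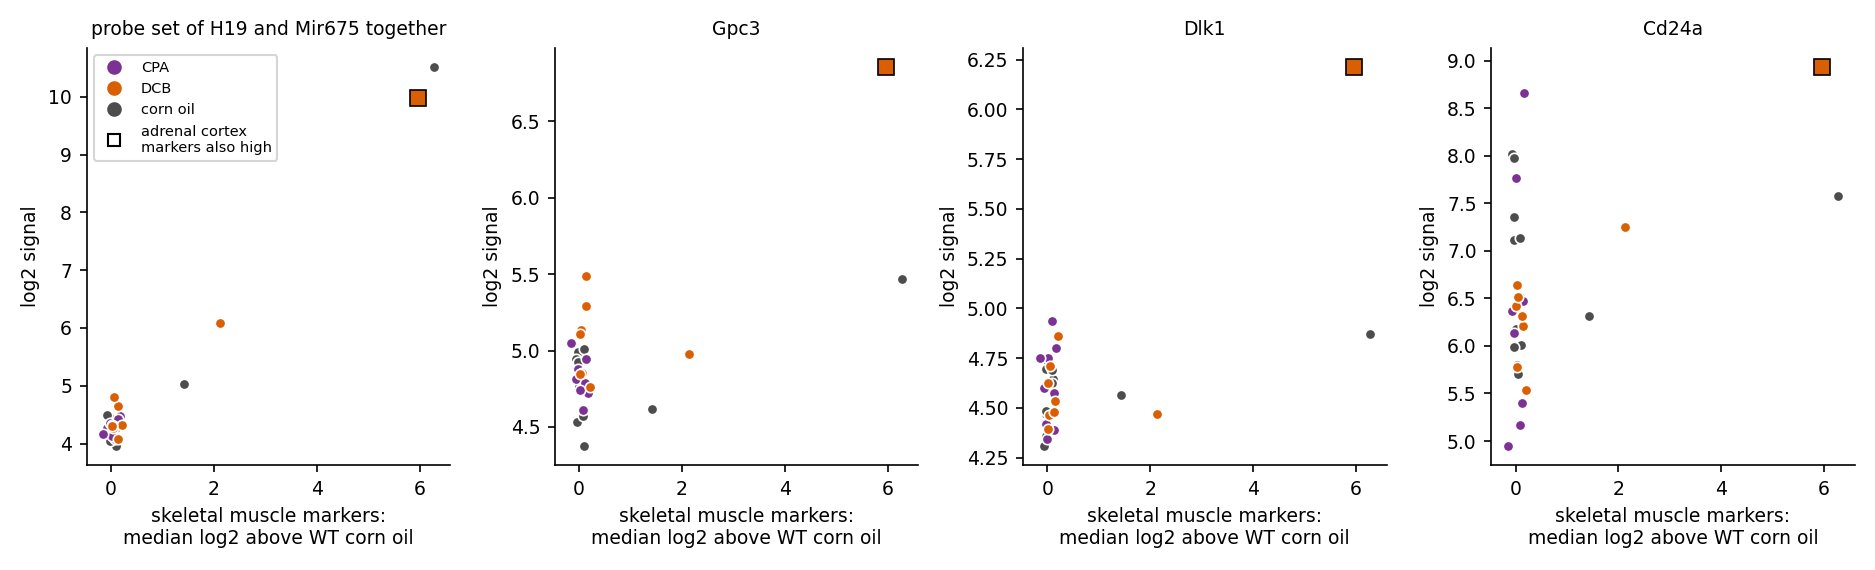
Log2 signal (vertical axes) of the probe set of H19 and Mir675, Gpc3, Dlk1 and Cd24a against the median of 17 skeletal muscle markers above WT corn oil (horizontal axes, log2) on 30 arrays, with CPA, DCB and corn oil in separate colours and a square for DCB CARko/PXRko replicate 3. The shared probe set follows the muscle markers, whereas Gpc3 and Dlk1 are highest on the square.

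Gpc3 and Dlk1 were highest on 1 of these 3 arrays. On DCB CARko/PXRko replicate 3, with muscle, adrenal cortex and brown fat transcripts, Gpc3 stood at 6.86 and Dlk1 at 6.21. On corn oil CARko/PXRko replicate 2, with the highest muscle median and an adrenal median of -0.06, Gpc3 stood at 5.47 and Dlk1 at 4.87. The part of these tissues in the values was not tested. On DCB CARko/PXRko replicate 3 the adrenal gene Cyp11b1 stood at 11.97 and the brown fat gene Ucp1 at 13.49, against 4.00 and 4.49 on WT corn oil replicate 1. The correlation of Gpc3 with Dlk1 was 0.68 over 30 arrays and -0.30 over the 27 without muscle transcripts. The genes most like Dlk1 over 30 arrays were Stmn2, Cidea, Slc36a2, Retn and Star (r = 0.87 to 0.90), and those most like Gpc3 were Slc7a1, Slc24a3, Slc36a2, Cidea and Itga6 (r = 0.84 to 0.87). Those for Igf2 were Art5, Apod, Ppp1r1a, Apol6 and Rasl12 (r = 0.70 to 0.73). Cidea is a lipid droplet gene of brown fat and Star the cholesterol carrier of steroid-making cells. Without the 2 arrays farthest from the median of each member, the coefficients were 0.10 to 0.54 for Dlk1, 0.27 to 0.53 for Gpc3 and 0.31 to 0.63 for Igf2. Over the 27 arrays without muscle transcripts those for Igf2 were 0.46 to 0.57.

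The known repressors of Afp were measured, and none was called for DCB or CPA against corn oil. Zhx2 differed under DCB by -0.07 ± 0.15 in hCAR/hPXR, -0.29 ± 0.15 in CARko/PXRko and -0.03 ± 0.15 in WT mice (adjusted p = 0.843, 0.651 and 0.986). Zbtb20 differed by -0.55 ± 0.40, -0.04 ± 0.40 and -0.35 ± 0.40 (adjusted p = 0.439, 0.995 and 0.869). Zfhx3, which encodes a repressor of the Afp enhancer, differed by -0.45 ± 0.29, 0.17 ± 0.29 and -0.06 ± 0.29 (adjusted p = 0.382, 0.944 and 0.985). DCB hCAR/hPXR replicate 3 was the lowest of its group for Zhx2 (6.11), Zbtb20 (9.60) and Zfhx3 (6.84). For CPA in CARko/PXRko mice, Zhx2 differed by -0.45 ± 0.15 (adjusted p = 0.0831) and Zfhx3 by -0.85 ± 0.29 (adjusted p = 0.0943), both without overlap of the arrays. For CPA against DCB in those mice, Zfhx3 was called (-1.02 ± 0.29, adjusted p = 0.0365). Without the muscle arrays Zfhx3 differed by -1.01 ± 0.43, with 1 DCB array left, which cannot show whether the call holds. The part of these repressors in the Afp values was not tested.

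The counts of further gene lists that follow are to be read against the share of all genes called. Under DCB that was 7.64% in hCAR/hPXR, 0.117% in CARko/PXRko and 0.735% in WT mice, and under CPA 4.42%, 5.49% and 1.12%. Of the list genes called for CPA in CARko/PXRko mice, 7 in all, 6 were still called without the 3 muscle arrays. The exception was Yap1 (-0.42 ± 0.13, adjusted p = 0.0719).

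Of 22 regulators of fetal liver genes tested, 2 fell under DCB in hCAR/hPXR mice: Foxa3, a forkhead factor of hepatocytes (-1.25 ± 0.33, adjusted p = 0.0216), and Ctnnb1, which encodes beta-catenin (-0.48 ± 0.15, adjusted p = 0.0454). None was called under DCB in CARko/PXRko or WT mice. The list median under DCB was -0.24 in hCAR/hPXR, -0.07 in CARko/PXRko and -0.06 in WT mice, against -0.02, 0.01 and -0.01 over all genes. Under CPA 1 of 22 was called, Yap1 in CARko/PXRko mice (-0.40 ± 0.11, adjusted p = 0.0366).

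Of the 3 albumin family genes listed, Alb and Afm had a probe set of their own and Gc had none. Alb and Afm gave no called rise beside that of Afp. Alb differed under DCB by -0.05 ± 0.08 in hCAR/hPXR, -0.01 ± 0.08 in CARko/PXRko and 0.01 ± 0.08 in WT mice, none called; its signal was near the top of the arrays, whose highest values lay between 15.21 and 15.34, so a change there could be understated. Afm, which encodes afamin, differed under DCB by -0.74 ± 0.27, -0.63 ± 0.27 and -0.24 ± 0.27 in the same genotypes (adjusted p = 0.0988, 0.555 and 0.867). Under CPA, Afm fell in CARko/PXRko mice, with 12.25, 12.09 and 11.36 on the CPA arrays, against 12.88, 12.87 and 12.85 on the corn oil arrays (-0.97 ± 0.27, adjusted p = 0.0386).

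Of 18 other oncofetal and progenitor genes tested, 0 were called under DCB in CARko/PXRko and WT mice, and 1 fell in hCAR/hPXR mice, Sox4, a progenitor transcription factor (-1.78 ± 0.53, adjusted p = 0.0418). Under CPA, Lgr5, a stem cell marker that pericentral hepatocytes also express, fell in hCAR/hPXR mice (-1.02 ± 0.25, adjusted p = 0.0206). Tff3, a secreted trefoil peptide, stood at 11.72, 9.13 and 10.16 on the CPA arrays of CARko/PXRko mice, against 6.62, 8.38 and 7.01 on the corn oil arrays, and rose by 3.00 ± 0.85 (adjusted p = 0.0390). Of the list, 1 gene of 18 was thus called for each of DCB and CPA in hCAR/hPXR mice and for CPA in CARko/PXRko mice, where 7.64%, 4.42% and 5.49% of all genes were. The list median under DCB was -0.21 in hCAR/hPXR, 0.16 in CARko/PXRko and 0.10 in WT mice.

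Around Igf2, 14 genes of the IGF pathway were tested. Under DCB, 2 fell in hCAR/hPXR mice, Igfbp3 (-1.73 ± 0.43, adjusted p = 0.0169) and Igf1, the adult liver's growth factor (-0.53 ± 0.16, adjusted p = 0.0400), and none was called in CARko/PXRko or WT mice. The list median under DCB was -0.41 in hCAR/hPXR, -0.0015 in CARko/PXRko and -0.17 in WT mice. Under CPA, Igfbp2, a binding protein for both growth factors, stood at 10.21, 11.21 and 9.67 in hCAR/hPXR mice, against 13.06, 12.75 and 13.19 with corn oil. It fell there (-2.64 ± 0.36, adjusted p = 6.48e-05), and that effect differed from the one in WT mice by -2.80 ± 0.51 (adjusted p = 0.0255). Of 18 imprinted genes, 1 was called under DCB, Slc22a18, which rose in hCAR/hPXR mice (0.79 ± 0.21, adjusted p = 0.0238), and 1 under CPA, Gnas, which fell in CARko/PXRko mice (-0.58 ± 0.17, adjusted p = 0.0416). The median of the imprinted genes under DCB was -0.20 in hCAR/hPXR, 0.03 in CARko/PXRko and 0.02 in WT mice.

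Among 12 glypicans and partners of the surface members, Jag1, a Notch ligand (-1.11 ± 0.24, adjusted p = 0.00680), Lrp1, an endocytic receptor (-1.19 ± 0.33, adjusted p = 0.0296), and the glypican Gpc4 (-0.64 ± 0.17, adjusted p = 0.0228) fell under DCB in hCAR/hPXR mice. Under CPA, Fzd7, a Wnt receptor, fell in CARko/PXRko mice (-1.34 ± 0.27, adjusted p = 0.00411). The 3 of 12 for DCB in hCAR/hPXR mice stand beside 7.64% of all genes, and the 1 of 12 for CPA in CARko/PXRko mice beside 5.49%. None of the 12 was called in the other 4 treatment effects. Their median under DCB was -0.45 in hCAR/hPXR, -0.08 in CARko/PXRko and -0.04 in WT mice.

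Afp is known to return in regenerating mouse liver, and 18 cell cycle genes were set beside Afp. None was called under DCB in any genotype, with list medians of -0.01 in hCAR/hPXR, -0.18 in CARko/PXRko and 0.32 in WT mice. In WT mice the array with the highest Afp, DCB replicate 1, was also the highest of the 30 for Mcm6 (10.04) and Mcm5 (9.39), which encode subunits of the replicative helicase, whose corn oil WT arrays stood at 7.10 to 7.29 and 6.68 to 6.92. These genes were picked from the 18 after their values were seen, and the others are not given for that array. Mcm6 stood between 7.11 and 9.61 on the DCB arrays of hCAR/hPXR mice, between 7.38 and 8.11 on those of CARko/PXRko mice and between 7.90 and 10.04 on those of WT mice. Under CPA, 3 were called in hCAR/hPXR mice: Rrm2, a subunit of ribonucleotide reductase (2.40 ± 0.55, adjusted p = 0.0111), Ccnd1, which encodes cyclin D1 (-2.61 ± 0.67, adjusted p = 0.0249), and the proliferation marker Mki67 (-1.19 ± 0.33, adjusted p = 0.0363). Those called in CARko/PXRko mice were Cdkn1a, which encodes the inhibitor p21 (2.69 ± 0.59, adjusted p = 0.00807), and Ccnd1 (-3.54 ± 0.67, adjusted p = 0.00250), and in WT mice none was called.

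For CPA against DCB, hCAR/hPXR mice had 1 of the 18 cell cycle genes higher and 4 lower. CARko/PXRko mice had 2 higher and 1 lower, and WT mice had 0 higher and 3 lower. Of all genes tested, 9.31% were called for CPA against DCB in hCAR/hPXR, 7.6% in CARko/PXRko and 2.01% in WT mice. The gene higher in hCAR/hPXR mice was Rrm2 (3.19 ± 0.55, adjusted p = 0.000753). Mcm6 was lower in hCAR/hPXR (-2.48 ± 0.52, adjusted p = 0.00410) and WT mice (-2.84 ± 0.52, adjusted p = 0.00342), and Mcm5 likewise (-2.28 ± 0.54 and -2.77 ± 0.54, adjusted p = 0.00967 and 0.00618). Mcm2 was lower in the same genotypes (-0.44 ± 0.14 and -0.56 ± 0.14), and the mitotic kinase gene Plk1 in hCAR/hPXR mice (-0.51 ± 0.15). Afp was also lower under CPA than under DCB in CARko/PXRko mice, where the called genes were Rrm2 (2.38 ± 0.55), Cdkn1a (1.99 ± 0.59) and Ccnd1 (-2.81 ± 0.67), and the arrays of Rrm2 and Cdkn1a overlapped. Without the muscle arrays, with 1 DCB array left, these differences were 1.49 ± 0.77, 2.45 ± 0.82 and -2.50 ± 0.81, and none was called. The part of cell division in the Afp values was not tested.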

How the data were processed

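Liver RNA of 30 mouse samples in 10 groups of 3 was measured on Affymetrix arrays. The deposited log2 values were made by the authors with RMA, per the submitters' processing notes; its version is not given in the sources used here. RMA subtracts background, equalizes the arrays and combines probes into 1 value per probe set, and it compresses changes of dim probe sets.

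Of the probe sets, 34945 were annotated to 1 gene, 932 to several and 9160 to none. The gene IDs of 34741 were found in RefSeq (GRCm38.p6), with 0 symbols differing. Per gene, the single-gene probe set with the highest mean was used (18193 genes), and a gene was tested when it exceeded the array median on at least 3 arrays (12795 genes).

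Group means were estimated from all arrays together by lmFit and eBayes of limma 3.58.1 (R 4.3.3; 20 residual and 3.62 prior degrees of freedom, two-sided). Each of 17 comparisons, and an F test over the groups, was adjusted by the Benjamini-Hochberg method over the genes tested, with calls at an adjusted p under 0.05. The number of arrays limits the precision. The procedure was tested on simulated data.

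The members, gene lists and alternatives were chosen with earlier results of these data known. In every comparison all members with values were open to naming, together with up to 4 called genes of each list with the smallest p, and 5 genes most like each member by Pearson correlation. Zhx2, Zbtb20, Zfhx3, Alb and Afm, where not called, and Mcm5 and Mcm6 by array were named outside that rule, after their values were seen. Apob, Cyp11b1 and Ucp1, from the marker lists, were also named outside it. Muscle arrays were those with a median of 17 muscle markers at least 1.5 above WT corn oil.

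Alternatives were no filter, a filter at the 75th percentile, a further quantile normalization, median centring, averaging all probe sets of a gene, a robust eBayes with a trend, weights for arrays, a block for the replicate number, fits restricted to the groups compared, no muscle arrays, and each array left out in turn. Promoters came from RefSeq, where Afp, Gpc3 and Dlk1 had 1 each and Igf2 4. Figures were drawn with matplotlib 3.10.9 in Python 3.11.15.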

Additional observations from a re-analysis of the deposited data

How the results depend on the processing

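Of 1436 values recomputed for 86 results, 1399 were counted as the same in their calls and 37 were not. Direction was compared only where a result was called in either setting, and 0 of those reversed. A result called in neither could change sign and still count as the same. Afp for CPA in CARko/PXRko mice did so, from 0.11 to as low as -0.31 with an array left out. The calls of Afp for DCB and for CPA against DCB in hCAR/hPXR mice were kept in every setting run. The number of members called, 1 for DCB in WT mice, was 0 with only the groups compared and 0 to 1 with an array left out. For DCB in CARko/PXRko mice, also 1, it was 0 with only the groups compared, 0 without the arrays with skeletal muscle transcripts and 0 to 1 with an array left out. For CPA against DCB in CARko/PXRko mice, 1 in the report, it was 2 after a further quantile normalization, 0 with only the groups compared, 0 without the muscle arrays and 1 to 2 with an array left out. In WT mice that comparison gave 2 with only the groups compared (Cd24a, -1.15, adjusted p = 0.0182). For CPA in WT mice, 0 in the report, it was 1 with only the groups compared, 1 without the muscle arrays and 1 with array weights. Array weights also gave 1 call, Cd24a, for CPA in CARko/PXRko mice (2.27, adjusted p = 0.000602) and for the difference of that effect from WT mice (4.63, adjusted p = 7.10e-05); they called 3299 genes for CPA in CARko/PXRko mice, against 702 with equal weights. The gene-by-gene weighting was chosen after the default method had not converged. The F test over the 10 groups called 1 to 2 members with an array left out. Without the muscle arrays, CARko/PXRko mice keep 1 DCB array and 2 corn oil arrays, and the lone array is assumed to vary like the other groups. Leaving out groups or arrays leaves fewer arrays in the fit; for the other changes the cause was not tested.

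Samples with the same replicate number did not deviate together in general: over 39 pairs in 13 comparisons the correlations lay between -0.59 and 0.57, and all pairs exceeded 0.1 in 2 comparisons, hCAR/hPXR and PXRko against WT with corn oil. With the replicate block, Afp under DCB had adjusted p = 0.00168 in hCAR/hPXR, 0.0190 in CARko/PXRko and 0.00428 in WT mice, and all 85 results kept their call. Dim signals limit Gpc3 and Dlk1, and 3 arrays a group leave wide intervals for Cd24a.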
